A study of Rattus norvegicus with 48 samples.

Results

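The renal medulla of rats given hydroxy-L-proline (HLP) plus apocynin was set against the medulla of control rats, as the 6 HLP plus apocynin and the 6 control medulla arrays named in the table of bead signals. These 12 arrays were all that the labels and that table give for these groups, of 48 arrays in the series, which cover 4 diets in 2 tissues (cortex and medulla) with 6 rats each. The HLP plus apocynin rats received regular chow with 5% HLP and apocynin in the drinking water (4 mmol in the labels, with no volume, and 4 mM in the methods), against regular chow alone in the control rats, and all were male and sampled after 28 days. A group fed 5% HLP alone and a group given 4 mmol apocynin alone supplied the medulla values set beside this comparison. The labels call the strain Wistar and give 28 days as the age, whereas the methods describe adult Sprague-Dawley rats, so the strain and age are not settled by these sources. Cortex and medulla were dissected from the same kidney of a rat, and each RNA was hybridized once to an Illumina rat beadchip, on which short probes attached to beads capture the labelled RNA of each gene.

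Hydroxyproline is broken down to glyoxylate and then to oxalate, and feeding it gives rats hyperoxaluria and calcium oxalate crystals in the tubules. Apocynin blocks assembly of NADPH oxidase, the enzyme complex that makes superoxide from a membrane core (Cybb and Cyba) and cytosolic subunits (among them Ncf1, Ncf4 and Rac). The medulla holds thick ascending limbs, thin limbs and collecting ducts, which concentrate the urine, and its outer stripe also holds the straight part of the proximal tubule. The comparison therefore asks how the medulla of rats on both agents differs from that of untreated rats, and it cannot by itself tell the share of HLP from that of apocynin.

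Of 22226 probes, the 11314 detected (detection p under 0.05) in 6 or more of the 12 arrays were tested with limma on log2 signals, and a probe is called where its Benjamini-Hochberg adjusted p was under 0.05. The probes tested stood for 8186 named genes. Before normalization the median signal of an array was 55.6 to 67.4 in HLP plus apocynin medulla and 55.1 to 61.1 in control medulla, and 49.2 to 52.8% and 49.9 to 52.1% of probes were detected. Umod, made by the thick ascending limb, and Aqp2, the collecting duct water channel, were detected in all 12 arrays. The urothelial marker Upk3a was detected in 5 HLP plus apocynin arrays (6.47 to 7.85) and in 1 control array (6.45 to 6.52), and Upk1b in 1 HLP plus apocynin array and 0 control arrays. The mean of the 3 urothelial markers tested was -0.17 to 0.38 over HLP plus apocynin arrays and -0.11 to 0.25 over control arrays. The mean of the 5 blood markers tested was -0.99 to 0.72 over HLP plus apocynin arrays and -0.87 to 1.59 over control arrays, with 4 of them lower, a median difference of -0.43 and 0 called by limma. The part of blood and urothelium in the differences was not tested. Proximal tubule markers were also high, with Slc34a1 at 9.45 to 12.4 in HLP plus apocynin medulla and 10.7 to 12.6 in control medulla.

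Several features of the arrays bear on every value below.
First, the authors deposited the same arrays a second time as log2 values, and there 40 of the 48 arrays carry the name of another sample and 24 that of another group, 12 of them in the medulla. No array changes tissue between the tables. Only 3 HLP plus apocynin and 3 control medulla arrays have the same group in both, and which table holds the right names is not settled here. The names of the signal table are used unless said otherwise. Then, on a cortex-to-medulla axis set from 50 probes each way in the apocynin-only arrays (0 for their medulla mean, 1 for their cortex mean), HLP plus apocynin medulla lay at -0.32 to 0.36, while control medulla lay at -0.64 to 0.11 except array 4, at 0.94. The medians were -0.12 and -0.44. Control arrays 2, 3, 5 and 6 (-0.64 to -0.41) lay below every HLP plus apocynin array. The part of this shift in tissue position in the values below was not tested. The control cortex array numbered 4 lay at -0.09, so the control arrays of this number lie nearer the other tissue than their labels say. The array named apocynin medulla 4, one of those that set the axis, itself lay at 0.89, against -0.34 to -0.06 in the other 5, so its place and the zero of the axis rest partly on it. The log2 table names that array HLP plus apocynin medulla 2. It names control medulla 4 HLP medulla 2, and HLP plus apocynin medulla 3 apocynin medulla 5. Values of this comparison with the names of the log2 table therefore also leave out both of these arrays. Next, HLP plus apocynin array 3 stood apart from the other arrays of its group in many gene lists, as described with them. In the cortex, the HLP plus apocynin array of that number was at 1.52 for collagens and matrix (others -0.34 to 0.41), relative to the control medulla mean. For complement it was at 1.71 (others -0.38 to 0.64), but for Nrf2 target genes at -0.114 (others -0.112 to 0.016). Apocynin medulla array 3 was at 1.30 for collagens and matrix (others -0.03 to 0.28) and 1.36 for complement (others 0.02 to 0.37). Last, the columns of control and HLP medulla stand in a block of 12 in the signal table, and those of apocynin and HLP plus apocynin in the next. Whether a block was a processing run is not stated in the sources used here, and apocynin and block cannot be told apart.

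In HLP plus apocynin medulla, 139 of 11314 probes were called, which is 1.23%. Of these, 28 were higher (0.247%) and 111 lower (0.981%) than in control medulla. The calls fell on 95 named genes, 23 higher and 72 lower, and on 44 probes without a symbol, whose log2 differences ran from -1.30 to 0.50. A difference of at least 1.5-fold was seen for 38 called probes, 9 of them higher and 29 lower. Unadjusted p under 0.05 was reached by 2152 probes, and the smallest adjusted p was 0.0165, so the calls lay close to the threshold. The ranges of the groups did not overlap for 359 probes (3.17%), 122 higher (1.08%) and 237 lower (2.09%), and 124 of the 139 called probes were among them. The median log2 difference over all genes tested was -0.003, and 3975 of the 8186 genes (48.6%) were higher.

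The number of calls was unstable. Without control array 4 it was 370, without HLP plus apocynin array 3 it was 179, and without both it was 759 (312 higher, 447 lower). Leaving out HLP plus apocynin array 1 or 2 gave 4 or 2 calls, and leaving out control array 3 or 5 gave 0 by limma, with 1807 and 1657 probes at an unadjusted p under 0.05. With the group names of the log2 table it was 790 (303 higher, 487 lower), 97 of which were among the 139, and 636 (256 higher, 380 lower) when the array named apocynin medulla 4 was also left out. On the 3 and 3 arrays that both tables place in one group it was 1. Each of the 34 called genes described below kept its direction in all 28 alternative settings, and 24 of them were also called with the names of the log2 table. With single arrays left out, each of the 34 missed the threshold at least once, and the highest adjusted p over these omissions was 0.0665 for the steadiest of the 34 genes and 0.117 for the least steady. With median scaling, which moved the median of all probes to -0.09, each of the 19 falls was called but only 6 of the 15 rises, and the 9 that missed the threshold are named with their values below.

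**Figure D1:**
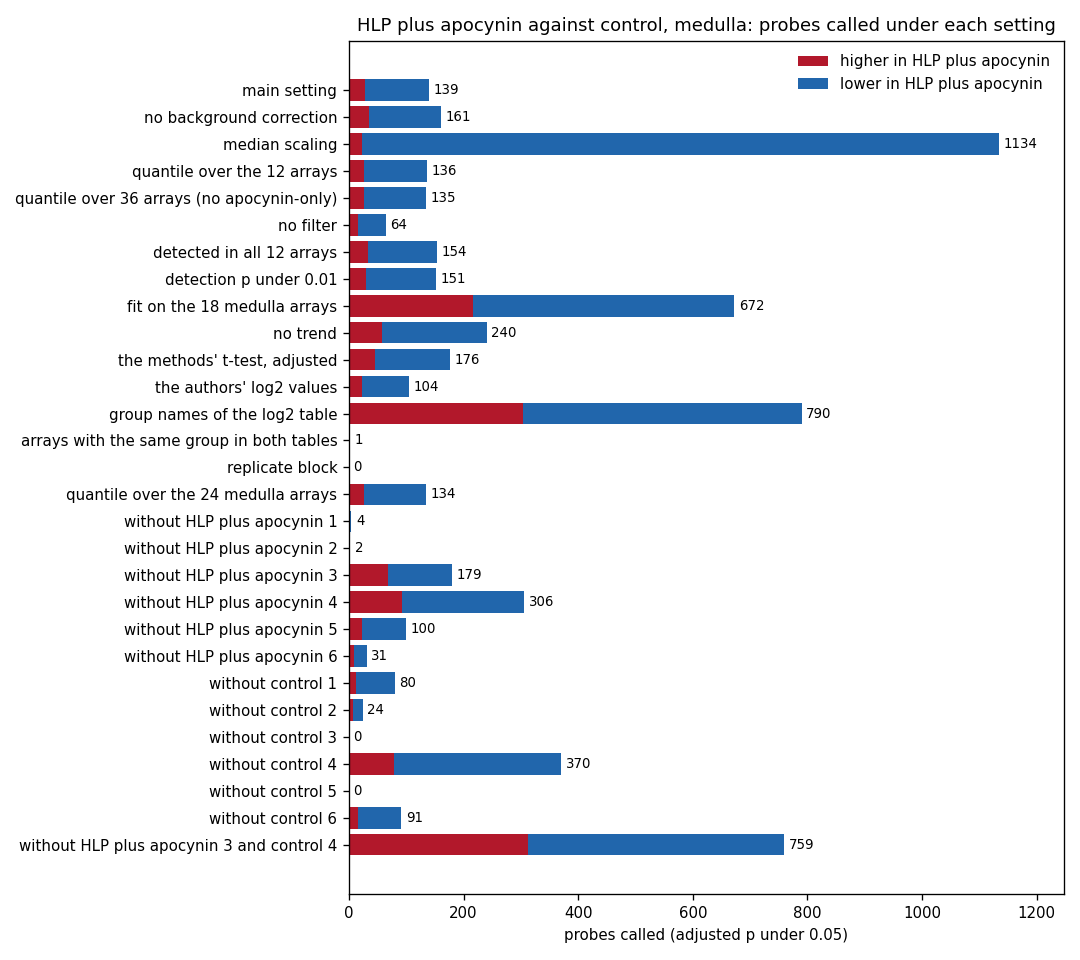
Probes called at adjusted p under 0.05 (horizontal axis, number of probes) in HLP plus apocynin against control medulla under the main setting (top row) and 28 alternatives, split into those higher and lower in HLP plus apocynin. The count runs from 0 without control 3, without control 5 or with the replicate number as a block to 1134 with median scaling, against 139 in the main setting.

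The largest called rise was in Hpgd, the dehydrogenase that starts the breakdown of prostaglandin E2, a prostaglandin abundant in the medulla. Its log2 signal was 10.78 at the lowest, 11.14 at the median and 11.53 at the highest in HLP plus apocynin medulla, against 8.70, 9.73 and 10.27 in control medulla. Every HLP plus apocynin array was above every control array. The log2 difference was 1.52 ± 0.26 (SE), or 2.87-fold (adjusted p = 0.0232), and it was 1.27 (adjusted p = 0.0247) with the names of the log2 table. Hpgd was the only called gene among the 12 tested of prostaglandin synthesis, breakdown and receptors, whose median log2 difference was -0.01. The synthase Ptgs2 differed by -0.13 (adjusted p = 0.647) and the receptor Ptger3 by -0.08 (adjusted p = 0.926).

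Sgk1, the serum- and glucocorticoid-regulated kinase that raises sodium uptake in the collecting duct, and Nedd4, a ubiquitin ligase, rose too. Sgk1 read 11.87, 12.33 and 12.68 (lowest, median, highest) in HLP plus apocynin medulla, against 11.18, 11.48 and 11.78 in control medulla, with no overlap. The log2 difference was 0.86 ± 0.14 (SE), or 1.82-fold (adjusted p = 0.0232). With the names of the log2 table it was 0.23 (adjusted p = 0.579), so the call on Sgk1 rests on the names. Sgk1 was the only called gene among the 18 tested for osmolytes, urea and water, whose median was -0.12 with 13 lower. The water channel Aqp2 differed by -0.37 (adjusted p = 0.588) and the urea transporter Slc14a2 by -0.67 (adjusted p = 0.691). Slc14a2, which marks the inner medulla, read 6.82 to 10.5 in HLP plus apocynin medulla and 6.49 to 10.3 in control medulla. Both groups thus held arrays with little and with much of it, but the control median was higher. The median of Slc14a2 was 7.965 in HLP plus apocynin medulla and 9.999 in control medulla. Nedd4 read 8.34, 8.60 and 9.24 in HLP plus apocynin medulla, against 7.54, 7.72 and 8.16 in control medulla. No array of either group entered the range of the other, and the difference was 0.88 ± 0.15 (adjusted p = 0.0257), 0.68 (adjusted p = 0.00212) with the names of the log2 table.

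Slc5a10, Sectm1b and Slc20a2 were further called rises, and none of the 3 was called with the names of the log2 table. Slc5a10, a sodium-coupled sugar transporter of the proximal tubule, read 10.57, 10.78 and 11.16 in HLP plus apocynin medulla, against 8.76, 9.91 and 10.31 in control medulla. The groups did not overlap, and the difference was 1.13 ± 0.23, or 2.18-fold (adjusted p = 0.0410), and 0.87 (adjusted p = 0.0554) with median scaling. Sectm1b, which codes a secreted and transmembrane protein, rose 2.25-fold (log2 difference 1.17 ± 0.24, adjusted p = 0.0408). With those names Slc5a10 differed by 0.59 (adjusted p = 0.381) and Sectm1b by 0.64 (adjusted p = 0.224). The phosphate transporter Slc20a2 rose by 0.59 ± 0.11 (adjusted p = 0.0334) and was at 0.40 (adjusted p = 0.115) with those names and 0.38 (adjusted p = 0.190) with median scaling. Proximal tubule markers had 0 of 21 called by limma, 14 higher and a median of 0.11 (0.41 with the names of the log2 table, 0.30 without HLP plus apocynin array 3 and -0.13 with median scaling), and their mean ran from -0.88 to 0.77 over HLP plus apocynin arrays and from -0.90 to 0.77 over control arrays. The part of the proximal tubule content in the difference of Slc5a10 was not tested.

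Serpinb1a and Dgka were higher in every HLP plus apocynin array than in any control array. Serpinb1a, an inhibitor of neutrophil elastase, read 9.76, 10.04 and 10.34 in HLP plus apocynin medulla, against 8.91, 9.30 and 9.49 in control medulla, a difference of 0.77 ± 0.12 (adjusted p = 0.0232), or 0.51 (adjusted p = 0.0561) with median scaling. Dgka, which turns the second messenger diacylglycerol into phosphatidic acid, read 9.02, 9.15 and 9.47 in HLP plus apocynin medulla, against 8.25, 8.52 and 8.60 in control medulla. Its difference was 0.73 ± 0.10 (adjusted p = 0.0218), 0.79 (adjusted p = 0.00118) with the names of the log2 table and 0.48 (adjusted p = 0.0708) with median scaling. Efcab10, a protein with a calcium-binding EF hand, had the smallest adjusted p of all probes, 0.0165, at 0.58 ± 0.07. It read 7.33 to 7.60 in HLP plus apocynin medulla and 6.78 to 7.07 in control medulla. Smaller rises were called for the ribosomal protein Rpl31 (0.55), the Gla-domain protein Prrg4 (0.55), Stimate, a membrane protein that acts on store-operated calcium entry (0.46), and the mitochondrial protein Lactb (0.31). With median scaling none of these 4 was called, with Rpl31 at 0.29 (adjusted p = 0.239), Prrg4 at 0.32 (adjusted p = 0.283), Stimate at 0.21 (adjusted p = 0.284) and Lactb at 0.06 (adjusted p = 0.743). Prrg4 missed the threshold also under the log2 table's names (0.31, adjusted p = 0.164) and without HLP plus apocynin array 3 (0.50, adjusted p = 0.0528).

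**Figure D2:**
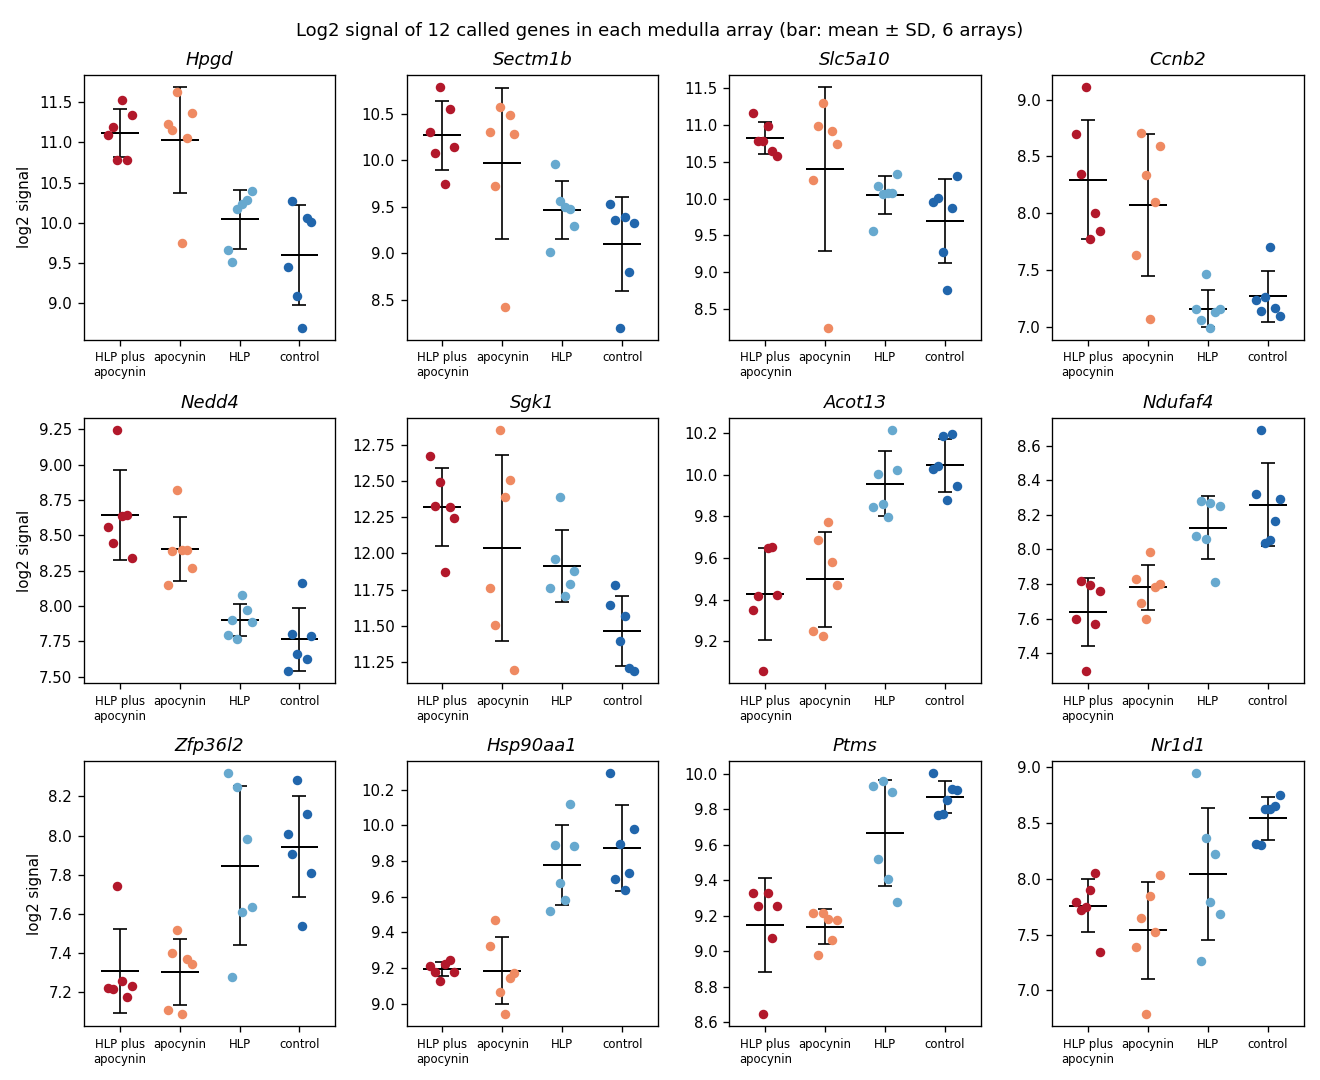
Log2 signal (vertical axes) of the 6 genes with the largest called rise and the 6 with the largest called fall, one point for each array, in HLP plus apocynin, apocynin, HLP and control medulla (left to right), with the mean and SD of 6 arrays as bars. HLP plus apocynin arrays lie beyond every control array for Hpgd (10.78 and above, against 10.27 and below) and Nr1d1 (8.05 and below, against 8.30 and above).

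Cell cycle genes were mostly higher, with 2 of 28 tested called up, none called down, 26 higher and a median log2 difference of 0.13. Over all genes tested, 23 of 8186 were called up and 48.6% were higher. Ccnb2, the cyclin B2 that drives entry into mitosis, read 7.77, 8.18 and 9.11 in HLP plus apocynin medulla, against 7.10, 7.20 and 7.71 in control medulla, where the top value was that of array 4. The groups did not overlap, and the difference was 1.03 ± 0.22, or 2.04-fold (adjusted p = 0.0457), 1.11 without control array 4 (adjusted p = 0.0271) and 0.82 (adjusted p = 0.0506) with the names of the log2 table. Kif20a, a kinesin of the mitotic spindle, rose by 0.23 ± 0.04 (adjusted p = 0.0326) from near the floor of the scale, with 6.82 to 7.08 in HLP plus apocynin medulla and 6.69 to 6.80 in control medulla, and was at 0.19 (adjusted p = 0.0719) with median scaling. The spindle proteins Prc1 (0.63, adjusted p = 0.0761) and Kif22 (0.54, adjusted p = 0.196) also had groups that did not overlap, without being called, and the kinase Cdk1 was at 0.70 (adjusted p = 0.132). The list mean was 0.02 to 0.60 over HLP plus apocynin arrays and -0.05 to 0.15 over control arrays, the highest being array 3 of HLP plus apocynin and array 4 of control. Without array 3 the median was 0.06 with 2 called up (68 of 11197 over all probes). Without both arrays it was 0.07 with 7 called up (312 of 11049 over all probes). The letters upstream of Ccnb2 are shown because genes that peak at mitosis often carry CCAAT boxes and the element TTTGAA near the start site, both put in capitals here.
Ccnb2 upstream: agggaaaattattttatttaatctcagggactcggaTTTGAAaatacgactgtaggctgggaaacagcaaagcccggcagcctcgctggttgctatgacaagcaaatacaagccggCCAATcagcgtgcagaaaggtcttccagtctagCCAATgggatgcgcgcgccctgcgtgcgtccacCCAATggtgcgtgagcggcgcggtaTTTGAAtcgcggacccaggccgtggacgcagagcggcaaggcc
This is the RefSeq sequence of the 250 bases before the annotated start (GRCr8, chr8:79981659-79981908, minus strand), searched on both strands for CCAAT and TTTGAA, which do not overlap each other. It holds 3 CCAAT boxes, starting 134, 101 and 68 bases before the start, and TTTGAA 214 and 43 bases before it. The same window of Kif20a holds 3 CCAAT on either strand and no TTTGAA. Of 33469 rat promoter windows of this length, 34.0% hold CCAAT, 16.2% hold TTTGAA and 5.87% hold both. The share with 3 or more CCAAT is 2.52%, and with TTTGAA as well it is 0.469%. These classes of 3 or more match the counts seen in Kif20a and Ccnb2, so their shares are no test. A match of letters is a description and not a site of binding.

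Falls outnumbered rises among the calls, and the largest with a symbol was Nr1d1, the nuclear receptor REV-ERB alpha that represses the clock gene Bmal1. It read 7.35, 7.77 and 8.05 in HLP plus apocynin medulla, against 8.30, 8.63 and 8.75 in control medulla. All HLP plus apocynin arrays were below all control arrays, and the difference was -0.78 ± 0.13, a 1.72-fold fall (adjusted p = 0.0232). It was -0.77 (adjusted p = 0.00967) with the names of the log2 table. No other circadian clock gene was called among the 11 tested, with Per2 at -0.35 (adjusted p = 0.235), Dbp at 0.03 and Per1 at 0.04. The hour at which the rats were killed was not found in the labels or methods.

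Hsp90aa1, the stress-inducible form of the chaperone Hsp90, fell by 0.68 ± 0.10 (adjusted p = 0.0232). Its 6 HLP plus apocynin arrays lay within 9.13 to 9.24, a narrow band, against 9.64 to 10.29 in control medulla. Among the 20 heat shock proteins and chaperones tested it was the only call, while 15 were lower and the median was -0.11. The endoplasmic reticulum chaperone Hspa5 differed by -0.09 (adjusted p = 0.575) and the co-chaperone Dnajb1 by -0.40 (adjusted p = 0.244). Eif2s1, the alpha subunit of the factor that brings the first tRNA to the ribosome, read 7.68, 7.72 and 7.90 in HLP plus apocynin medulla, against 8.18, 8.27 and 8.54 in control medulla, a difference of -0.56 ± 0.09 (adjusted p = 0.0232). Eif2ak1, a kinase that phosphorylates this subunit, fell by 0.48 ± 0.07 (adjusted p = 0.0232) and stood at -0.15 (adjusted p = 0.388) with the names of the log2 table.

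Some genes of mitochondria were among the falls. Cox5a, a subunit of cytochrome c oxidase, read 12.26, 12.56 and 12.62 in HLP plus apocynin medulla, against 12.82, 12.85 and 12.91 in control medulla. The groups did not overlap, and the difference was -0.34 ± 0.06 (adjusted p = 0.0287). It was the 1 call among 37 respiratory chain genes tested, of which 32 were lower, with a median of -0.10. Ndufs3 (-0.28, adjusted p = 0.0891) and Ndufab1 (-0.27, adjusted p = 0.0989), both of complex I, had groups that did not overlap. The list mean was -0.39 in HLP plus apocynin array 3 and -0.10 to -0.03 in the other 5, against -0.04 to 0.05 in control arrays, and without array 3 the median was -0.04 with 2 genes called down (111 of 11197 over all probes). With the names of the log2 table this median was -0.035 with 26 lower and 1 called down. With median scaling it was -0.35 with 36 lower and 9 called down (1111 of 11314 over all probes). Ndufaf4, which helps to assemble complex I, fell by 0.62 ± 0.13 (adjusted p = 0.0414) and stood at -0.27 (adjusted p = 0.0798) with the names of the log2 table. Acot13, a thioesterase of mitochondria, fell by 0.62 ± 0.11 (adjusted p = 0.0232). Fatty acid oxidation and peroxisome genes had no call among 27, with 22 lower and a median of -0.14, led by the coactivator Ppargc1a (-0.55, adjusted p = 0.0611) and Cpt1a, which admits fatty acids to mitochondria (-0.49, adjusted p = 0.0832). The mean of that list was -0.63 in HLP plus apocynin array 3 and -0.11 to 0.01 in the other 5, against -0.09 to 0.10 in control arrays. Without array 3 the median was -0.04 with 17 lower. With the names of the log2 table it was 0.01 with 14 higher and 2 called down (487 of 11309 over all probes). With median scaling it was -0.33 with 27 lower and 5 called down. Over all probes, median scaling gave a median of -0.09 and called 1111 of 11314 down.

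Kinases and regulators of signalling were also among the falls. Prkcz, an atypical protein kinase C, read 9.0, 9.31 and 9.46 in HLP plus apocynin medulla, against 9.67, 9.83 and 10.10 in control medulla, and differed by -0.61 ± 0.11 (adjusted p = 0.0316), but by -0.15 (adjusted p = 0.589) with the names of the log2 table. Chka, the kinase that starts phosphatidylcholine synthesis, fell by 0.60 ± 0.08 (adjusted p = 0.0232), and stood at -0.27 (adjusted p = 0.242) with those names. Smad7, an inhibitor of TGF-beta signalling, fell by 0.41 ± 0.09 (adjusted p = 0.0457) as the only call of 21 TGF-beta and BMP genes, whose median was 0.02, and was at -0.40 (adjusted p = 0.0519) without HLP plus apocynin array 3. Zfp36l2, which speeds decay of AU-rich mRNAs, fell by 0.64 ± 0.13 (adjusted p = 0.0451). Its values were 7.18 to 7.75 in HLP plus apocynin medulla and 7.54 to 8.29 in control medulla, so the groups overlapped, and the top HLP plus apocynin value was array 3. The widest remaining falls were in parathymosin (Ptms, -0.72 ± 0.11), Neurl4 (-0.62 ± 0.13, or -0.39 with the names of the log2 table), the mitochondrial immunophilin Fkbp8 (-0.60 ± 0.10), Dda1 (-0.60 ± 0.12) and the dynein light chain Dynlt3 (-0.58 ± 0.12). Among falls with the smallest adjusted p were Map1lc3a, an LC3 protein of autophagosomes, Ift20, which carries cargo into cilia, and the ubiquitin-conjugating enzyme Ube2a. Map1lc3a read 10.19 to 10.47 in HLP plus apocynin medulla and 10.78 to 10.94 in control medulla, a difference of -0.50 ± 0.06 (adjusted p = 0.0218). Ube2a differed by only -0.11 ± 0.02 near the floor of the scale.

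The called genes named next lie outside the naming rule and were chosen after their values were seen. Mpc1, a subunit of the carrier that takes pyruvate into mitochondria, was at -0.57 (adjusted p = 0.0463), and the mitochondrial ribosome genes Mrps24 and Mrpl41 were at -0.48 (adjusted p = 0.0287) and -0.46 (adjusted p = 0.0442). Optn, an autophagy receptor, was at -0.55 (adjusted p = 0.0380) and Lamtor2, part of the complex that anchors mTORC1 to lysosomes, at -0.32 (adjusted p = 0.0413). The proteasome genes Psma1 and Adrm1 were at -0.44 and -0.56. Fxyd2, the gamma subunit of the sodium pump, had probes that disagreed, at -0.27 (adjusted p = 0.0443) and, for the brighter probe, -0.10 (adjusted p = 0.373).

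**Figure D3:**
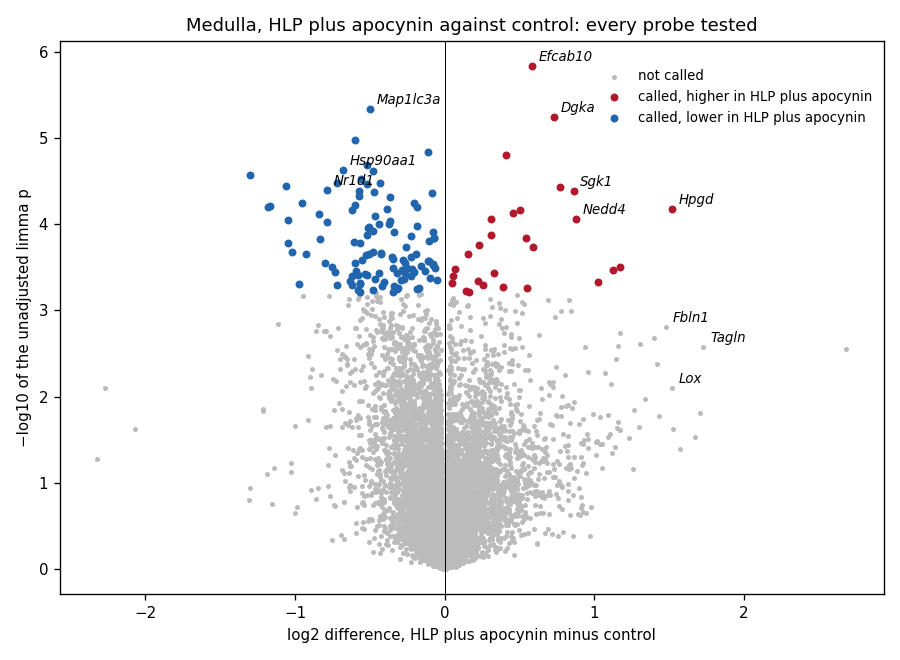
Each of the 11314 probes tested in the medulla, with the log2 difference of HLP plus apocynin minus control on the horizontal axis and minus log10 of the unadjusted limma p on the vertical axis, and the 139 called probes in colour. Calls are mostly falls of under 1 log2 unit, while several of the largest rises, such as Tagln at 1.73 and Lox at 1.52, are not called.

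Many of the largest differences were rises that were not called, in genes whose HLP plus apocynin arrays varied widely. Collagens and matrix genes had no call among 28 tested although 27 were higher and the median log2 difference was 0.81, against -0.003 over all genes. Lox, which cross-links collagen, read 7.93, 8.51 and 11.34 in HLP plus apocynin medulla, against 6.86, 7.37 and 7.80 in control medulla. No array overlapped, yet array 3, at 11.34, lay far above the next value of 8.92, and the difference of 1.52 ± 0.48 had an adjusted p of 0.123. Fbln1 was at 1.48 (adjusted p = 0.0728), Col14a1 at 1.40 (adjusted p = 0.0773), Col3a1 at 1.16 (adjusted p = 0.192) and Col1a1 at 0.84 (adjusted p = 0.297). The mean of the list was 2.32 in array 3 and 0.15 to 0.84 in the other HLP plus apocynin arrays, against -0.39 to 0.24 in control arrays. Without array 3 the median was 0.50 and 4 genes were called up (68 of 11197 over all probes). Without array 3 and control array 4 it was 0.53 and 7 were called up (312 of 11049 over all probes). With the names of the log2 table it was 0.29 with 2 called up (303 of 11309 over all probes).

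Complement genes were higher in 13 of 13 tested, with none called and a median of 0.65, with C2 at 1.42 (adjusted p = 0.0966) and C4b at 1.34 (adjusted p = 0.139). Their mean was 2.08 in HLP plus apocynin array 3 and 0.00 to 0.74 in the other 5, against -0.30 to 0.20 in control arrays. Without array 3 the median was 0.38 and C2 was called (1.03, adjusted p = 0.0435). With the names of the log2 table it was 0.26 and C2 was called (1.09, adjusted p = 0.00554). Without array 3 and control array 4 it was 0.42 with 3 called up (312 of 11049 over all probes). Tubular injury genes had no call among 15, with 13 higher and a median of 0.41. Among them Lcn2, a marker of tubular damage, was at 1.67 (adjusted p = 0.213), Timp1 at 1.53 (adjusted p = 0.194) and Clu at 1.31 (adjusted p = 0.0825). Without array 3 the median of that list was 0.27, and with the names of the log2 table it was -0.09 with 4 called up and 1 called down. Over all probes, 303 of 11309 were called up and 487 down with those names. Smooth muscle genes had no call among 15, with a median of 0.28 and Tagln at 1.73 (adjusted p = 0.0832), which read 8.45, 9.64 and 11.70 in HLP plus apocynin medulla, against 7.53, 7.86 and 8.72 in control medulla. With the names of the log2 table the median was 0.00 with 1 called down, and Tagln was at 0.44 (adjusted p = 0.236). Without array 3 the median was 0.27 with 1 called up (68 of 11197 over all probes).

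Marker lists of cell types also differed beside these genes, none with a call at the settings used throughout. Fibroblast and interstitium markers were higher in 9 of 10 tested (median 0.76), and their mean was -0.03 to 1.48 over HLP plus apocynin arrays and -0.36 to 0.46 over control arrays. This median was 0.48 without array 3 and 0.28 with the names of the log2 table. Without array 3 and control array 4 it was 0.55 with 2 called up (312 of 11049 over all probes). Smooth muscle and pericyte markers were higher in 5 of 5 (median 0.75), with means of 0.15 to 1.64 over HLP plus apocynin arrays and -0.23 to 0.64 over control arrays, but with the names of the log2 table the median was -0.01 with 2 higher and 3 lower. Macrophage and monocyte markers were higher in 14 of 14 (median 0.39), with 1.60 in array 3 and -0.11 to 0.47 in the other 5 HLP plus apocynin arrays, against -0.22 to 0.24 in control arrays. Without array 3 this median was 0.10, and with the names of the log2 table it was 0.06. Intercalated cell markers ran the other way, with 12 of 13 lower (median -0.42) and a mean of -0.58 to -0.03 over HLP plus apocynin arrays, against -0.16 to 0.28 over control arrays. Their median was -0.12 with the names of the log2 table. With median scaling it was -0.60 with 6 called down (1111 of 11314 over all probes, whose median was -0.09). Without array 3 and control array 4 it was -0.29 with 2 called down (447 of 11049 over all probes). The proton pump subunits Atp6v1c2 (-0.86, adjusted p = 0.0747) and Atp6v0d2 (-0.52, adjusted p = 0.0565) led this list. Principal cell markers were lower in 11 of 12 (median -0.21), and thin limb and inner medulla markers had a median of -0.14 (-0.31 without control array 4 and also with the names of the log2 table) with means of -0.69 to 0.63 over HLP plus apocynin arrays and -1.37 (array 4) to 0.59 over control arrays. The part of cell content in any of these differences was not tested, and in bulk tissue fewer cells of a type and less RNA per cell cannot be told apart.

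**Figure D4:**
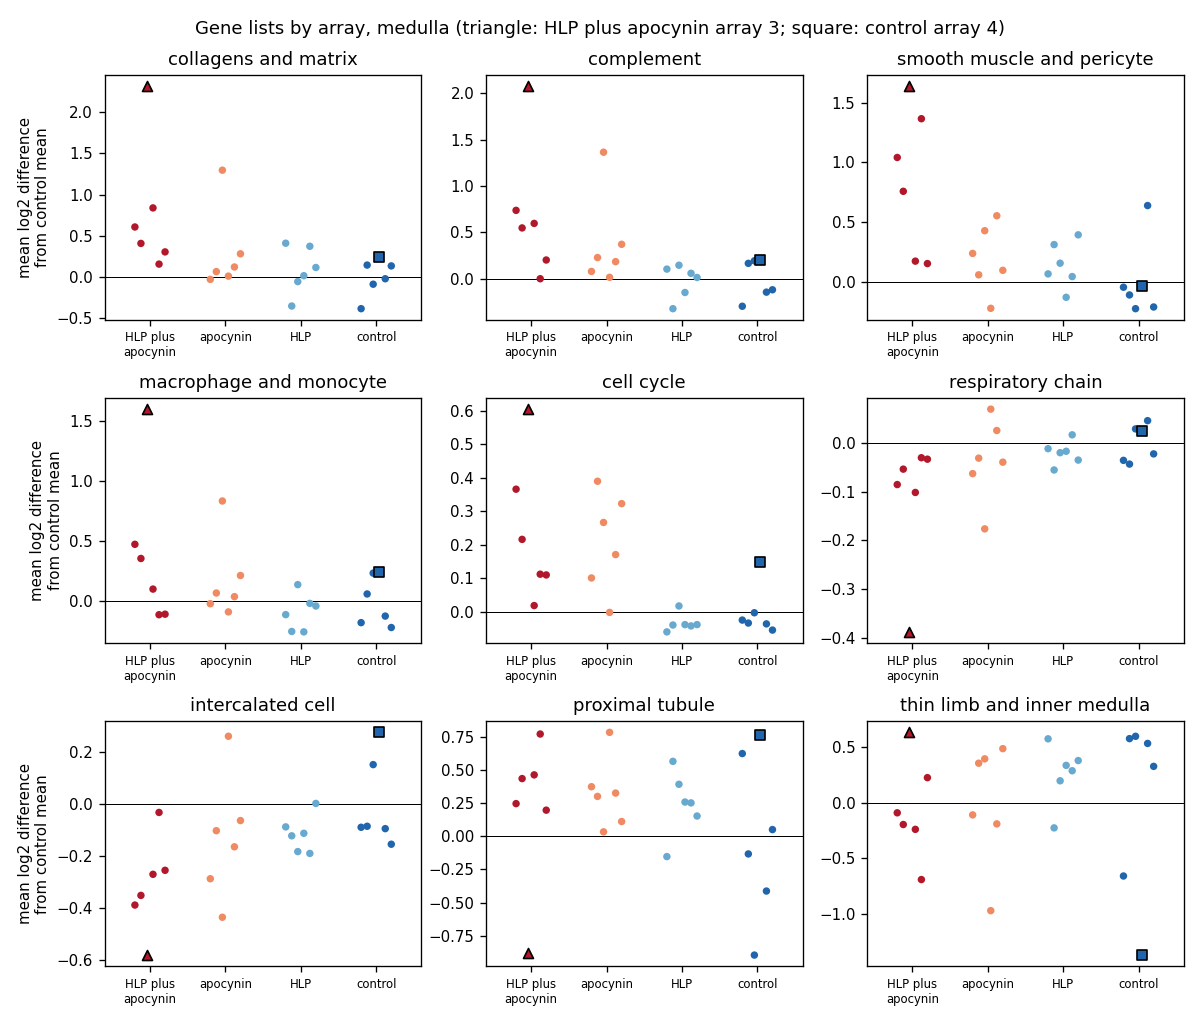
Mean log2 difference from the control medulla mean (vertical axes) over the tested members of 9 gene and marker lists, one point for each array, in HLP plus apocynin, apocynin, HLP and control medulla (left to right), with HLP plus apocynin array 3 as a triangle and control array 4 as a square. Array 3 lies at 2.32 for collagens and matrix, 2.08 for complement and -0.88 for proximal tubule markers, away from the other 5 arrays of its group.

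The genes the study was built around showed few differences past the threshold. Of 8 tested genes of the NADPH oxidase complex none was called, with 7 higher and a median of 0.27. Cyba, the membrane subunit p22phox, was at 0.63 ± 0.39 (adjusted p = 0.396), with 11.79 to 12.90 in HLP plus apocynin medulla and 10.67 to 13.27 in control medulla. Cybb, the catalytic subunit Nox2, was at 0.49 ± 0.28 (adjusted p = 0.357), Rac2 at 0.40 (adjusted p = 0.325), Nox4 at 0.37 (adjusted p = 0.779), Ncf1 at 0.17 (adjusted p = 0.722), Ncf4 at 0.07 (adjusted p = 0.386), Rap1a at 0.09 (adjusted p = 0.471) and Rac1 at -0.07 (adjusted p = 0.751). The spread between arrays was wide against these differences, and the list median was 0.16 without array 3 and 0.10 with the names of the log2 table. Without control array 4 it was 0.31, with none called and Cyba at 0.94 (adjusted p = 0.0960). None of 16 scavengers of superoxide and peroxide was called (median -0.03). Superoxide dismutase Sod1 was lower in each HLP plus apocynin array than in any control array, at 12.98 to 13.43 in HLP plus apocynin medulla and 13.45 to 13.65 in control medulla, without passing the threshold (-0.26 ± 0.07, adjusted p = 0.0905). Catalase (Cat) differed by 0.11 (adjusted p = 0.831), and Sod3, the extracellular form, by 0.75 (adjusted p = 0.167). Under the log2 table's names 3 scavengers were called up and 2 down, among them Sod3 (0.76, adjusted p = 0.0425) and Sod1 (-0.18, adjusted p = 0.0355). Over all probes, 303 of 11309 were called up and 487 down under those names. None of 14 Nrf2 target genes was called (median 0.02).

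In the renin-angiotensin system none of 8 genes tested was called and the median was 0.22, but -0.01 with the names of the log2 table (3 higher, 5 lower) and 0.08 without control array 4. The angiotensin precursor Agt was at 0.53 (adjusted p = 0.538), but at -0.01 (adjusted p = 0.991) with those names and 0.12 (adjusted p = 0.819) without control array 4. The receptor Agtr1a was at 0.43 (adjusted p = 0.267), the receptor Agtr1b at 0.01 (adjusted p = 0.924), the converting enzyme Ace at 0.01 (adjusted p = 0.983) and Atp6ap2, the prorenin receptor, at -0.23 (adjusted p = 0.0832). The largest differences of the list were in Mme (0.71, adjusted p = 0.402) and Enpep (0.59, adjusted p = 0.270). Mme was at 0.00 (adjusted p = 0.998) and Enpep at 0.62 (adjusted p = 0.146) with the names of the log2 table. Without array 3 and control array 4, Enpep was at 0.90 (adjusted p = 0.0309). In that setting 1 gene of the list was called up and 1 down (312 and 447 of 11049 over all probes). Of 14 tested genes of the signalling families that the study names, only Prkcz was called. The study's text names protein kinase C without naming this isoform. Ptk2b was at -0.39 (adjusted p = 0.101), Mapk14 at -0.25 (adjusted p = 0.221) and Plcg1 at 0.27 (adjusted p = 0.280). Of 10 genes listed as modulators of crystals only Hsp90aa1 was called. Osteopontin (Spp1) was at 0.60 (adjusted p = 0.386), with 12.86 to 13.47 in HLP plus apocynin medulla and 10.73 to 13.21 in control medulla. Matrix Gla protein (Mgp) was at 0.79 (adjusted p = 0.134), the monocyte chemokine Ccl2 at 0.33 (adjusted p = 0.546), Cd44 at 0.49 (adjusted p = 0.396) and uromodulin (Umod) at -0.04 (adjusted p = 0.732).

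Medulla of apocynin-only and HLP-only rats, set against the same control arrays, was set beside these values. Against control, 626 of 11271 probes (5.55%) were called in apocynin medulla, 263 higher (2.33%) and 363 lower (3.22%). The count was 1044 without control array 4 and 557 without apocynin array 4. In HLP medulla 0 of 11445 were called by limma, where 942 reached an unadjusted limma p under 0.05. Hpgd was 1.43 above control in apocynin medulla and 0.44 above it in HLP medulla. Dgka was at 0.74 and 0.03, Efcab10 at 0.53 and -0.05, Hsp90aa1 at -0.69 and -0.09, Ptms at -0.73 and -0.21, and Nr1d1 at -1.01 and -0.50. Prkcz stood apart from these, at -0.15 in apocynin medulla and -0.35 in HLP medulla, against -0.61 in HLP plus apocynin medulla.

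HLP plus apocynin against apocynin medulla, which lie in the same block of columns, gave 0 calls among 11143 probes by limma, with 434 at an unadjusted p under 0.05, and 0 calls also without array 3, without apocynin array 4 (440 at an unadjusted p under 0.05) and with the names of the log2 table. The smallest adjusted p of the 34 genes there was 0.990. Hpgd differed by 0.09 ± 0.27, Dgka by -0.01 ± 0.10, Efcab10 by 0.05 ± 0.13, Hsp90aa1 by 0.01 ± 0.09, Sgk1 by 0.29 ± 0.26 and Prkcz by -0.46 ± 0.10. The comparison with control spans both a change of block and the presence of apocynin, and these cannot be told apart.

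**Figure D5:**
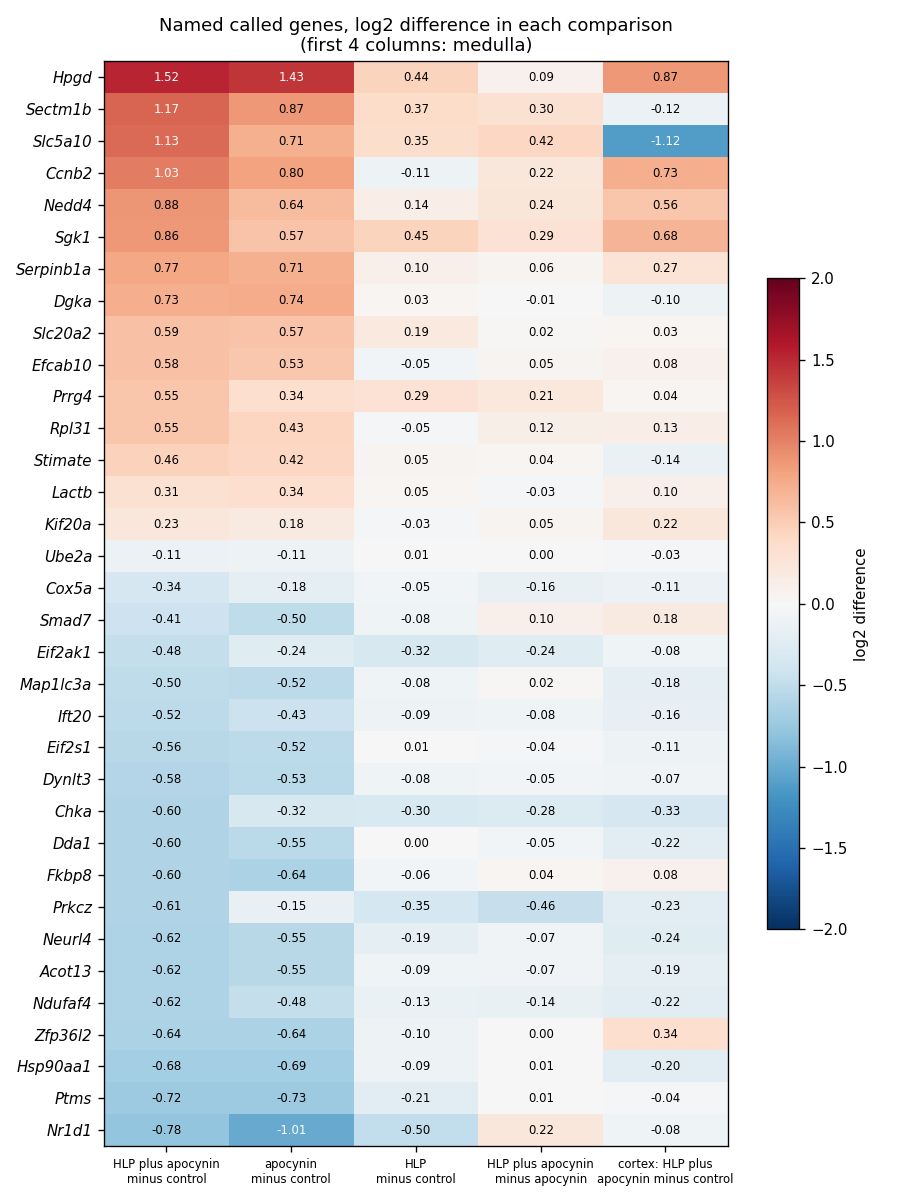
Log2 difference (colour and printed value) of the 34 named called genes in HLP plus apocynin minus control, apocynin minus control, HLP minus control and HLP plus apocynin minus apocynin in the medulla, and in HLP plus apocynin minus control in the cortex. Hpgd reads 1.52, 1.43, 0.44, 0.09 and 0.87 from left to right, and Slc5a10 is at 1.13 in the first column and -1.12 in the last.

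In the cortex of the same rats, HLP plus apocynin against control gave 868 calls among 11441 probes (7.59%), 530 higher (4.63%) and 338 lower (2.95%). On the cortex-to-medulla axis, control cortex arrays 1, 3, 4 and 5 lay at -0.09 to 0.65, below every HLP plus apocynin cortex array (0.82 to 1.11). The group medians were 0.58 and 0.98. The part of this in the cortex values and in the difference between tissues was not tested. Of the medulla calls 8 were also called in the cortex, all in the same direction, which is 5.76% of the medulla calls and 0.922% of the cortex calls. Hpgd was at 0.87 in the cortex (adjusted p = 0.0143), Sgk1 at 0.68 (adjusted p = 0.0491), Nedd4 at 0.56 (adjusted p = 0.0204), Ccnb2 at 0.73 (adjusted p = 0.0271) and Kif20a at 0.22 (adjusted p = 0.0307). The difference between tissues was tested with limma on 24 arrays with the rat as a block. Arrays of 1 group with the same number were taken as 1 rat. The test called 1104 of 12272 probes (9.0%), 292 more positive (2.38%) and 812 more negative (6.62%) in the medulla, and 744 without the block. Several probes at the top of that test lay near the floor of the scale, such as C2cd6 and Or1o11b, whose medulla differences were -0.02 and -0.01. Slc5a10 had opposite signs, at 1.13 in the medulla and -1.12 in the cortex (adjusted p = 0.0781), and the difference between these was 2.24 ± 0.43 (adjusted p = 0.00179). Dgka was 0.84 ± 0.16 more positive in the medulla (adjusted p = 0.00201), Sectm1b 1.29 ± 0.31 (adjusted p = 0.0101) and Efcab10 0.51 ± 0.07 (adjusted p = 0.000154). Nr1d1 was -0.08 in the cortex and its medulla effect minus its cortex effect was -0.70 ± 0.19 (adjusted p = 0.0197). Zfp36l2 was at 0.34 in the cortex (adjusted p = 0.282), with a difference between tissues of -0.98 ± 0.21 (adjusted p = 0.00533). Leaving out the control arrays numbered 4, which lay nearer the other tissue, gave 1458 probes that differed between the tissues.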

How the data were processed

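RNA of 24 rats was measured on 48 Illumina rat arrays, 24 of medulla and 24 of cortex. The authors deposited the bead intensity of each probe without background correction, with its detection p-value. They also deposited normalized log2 values of the same arrays under partly different names. The deposited values carry no sequencing depth, and the number of arrays limits the precision. The methods in the paper describe 36 arrays and no apocynin-only rats, whereas the labels give that group. Nothing in the labels shows shared batches, and 0 columns belonged to samples outside the labels.

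Intensities were background-corrected from the detection p-values (nec of limma 3.58.1, offset 16), quantile normalized over 48 arrays and put on the log2 scale (R 4.3.3). Probes with detection p under 0.05 in 6 or more of the 12 arrays were fitted with lmFit and eBayes (trend), with Benjamini-Hochberg adjustment over all probes tested. The tissue difference used duplicateCorrelation with the rat, taken from the group and number of each array, as a block (statmod 1.5.0, correlation 0.177). Each list mean is over its tested genes, relative to the control medulla mean. The fit was tested on simulated data. Of the probes, 13650 had 1 gene symbol and 8576 none.

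Genes were named by rule. The rule took the 12 largest called rises and 12 largest called falls with all 6 HLP plus apocynin arrays on 1 side of the control mean, the 8 each way with the smallest adjusted p, and the leading members of each list (up to 3 called each way, or the 2 of largest difference where none was called). It also took every tested gene of the lists built around what the study names, and the 5 each way with the smallest adjusted p in the tissue difference. A gene with several probes was given by its brightest. The comparison, the gene lists and the rule were chosen with earlier results of these data known. No source says that rats of a number were paired. Background correction, normalization, filters, arrays fitted, array names and single arrays were varied.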

Additional observations from a re-analysis of the deposited data

Results flagged for a closer look

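The effect of HLP plus apocynin against control differed between medulla and cortex (limma, adjusted p under 0.05) in 19 of the named called genes, given here as the medulla effect minus the cortex effect on the log2 scale. Over all probes tested, 1104 of 12272 (9.0%) differed. The named genes were chosen by their medulla calls, and the test reuses those medulla arrays, so this choice favours a larger effect in the medulla. The effect was more positive in the medulla for Slc5a10 (2.24), Sectm1b (1.29), Dgka (0.838), Stimate (0.594), Slc20a2 (0.554), Efcab10 (0.506), Rpl31 (0.421) and Lactb (0.214). It was more negative in the medulla for Zfp36l2 (-0.977), Nr1d1 (-0.701), Fkbp8 (-0.684), Ptms (-0.68), Smad7 (-0.584), Dynlt3 (-0.509), Eif2s1 (-0.452), Eif2ak1 (-0.398), Ift20 (-0.36), Cox5a (-0.223) and Ube2a (-0.0809).

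Single arrays stood apart from the other 5 of their group by Dixon's ratio, the gap to the nearest array over the whole range, above its critical value for 6 arrays. Of 110 groups of values tested, chance alone gives about 1 in 20. HLP plus apocynin array 3 stood apart for Zfp36l2 (0.853), Neurl4 (0.704), Nedd4 (0.663), Cox5a (0.644) and Ptms (0.628). Control array 6 stood apart for Prrg4 (0.725) and control array 4 for Ccnb2 (0.718).

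Array 3 also stood apart in the list means of neutrophil and mast cell markers (0.843, which rests on 1 tested gene, Kit), crystal modulators and monocyte chemokine (0.832), fatty acid oxidation and peroxisome (0.816), respiratory chain (0.801), matrix proteases and inhibitors (0.736), histamine, amine and steroid handling (0.727), lymphocyte markers (0.703), collagens and matrix (0.685), Nrf2 target genes (0.683), chemokines and cytokines (0.658), macrophage and monocyte markers (0.657), tubular injury (0.654), proximal tubule markers (0.652) and complement (0.645). HLP plus apocynin array 5 stood apart in coagulation and fibrinolysis (0.628).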

How the results depend on the processing

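The count of 139 called probes moved with the processing. It was 1134 with median scaling (23 higher and 1111 lower, 98.0% lower, against 28 and 111, 79.9%), where the median of all probes was -0.09, 672 in a fit on 18 medulla arrays, 240 without the trend, 64 with no filter, 790 with the group names of the log2 table, 636 with those names and no apocynin array 4, and 1 on the arrays that both tables place in one group. With single arrays left out it was 0 to 370, and 759 without HLP plus apocynin array 3 and control array 4. With the replicate number as a block it was 0, with 1974 probes at an unadjusted limma p under 0.05. The numbers were not shown to pair the arrays, since same-numbered arrays correlated at -0.498 to 0.381 (median 0.0538), 3 of 6 over 0.1, and 1 of 6 was closest to its own number. The methods' t-test gave 2113 probes at an unadjusted p under 0.05 (the methods give no threshold), 42 of them also 2-fold (30 higher, 12 lower), and 176 after Benjamini-Hochberg adjustment. The tissue difference had 1740 calls with median scaling, against 1104, and 744 with no replicate block for the rat. Apocynin against control had 1202 calls with the names of the log2 table and 1044 without control array 4 and 557 without apocynin array 4, against 626. For the 34 named called genes, 323 of 952 alternative values missed the threshold and 0 changed direction. For the 77 named genes not called, 60 of 2137 passed it. Chosen after seeing the data were omitting HLP plus apocynin array 3 and control array 4 together, quantile normalization over the medulla arrays, omitting control array 4 in the other comparisons and the gene lists, omitting apocynin array 4, and the names of the log2 table for apocynin or HLP against control and for the cortex. The cause of these changes was not tested.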
